A study of Mus musculus with 15 samples.

Results

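Leukemia stem cells (LSC) taken from the spleen (SPL) were compared with LSC taken from the bone marrow (BM) of mice with a leukaemia that models blast crisis chronic myeloid leukaemia. The genes described are those with a level of 1 FPKM or more in SPL LSC or in BM LSC, FPKM being fragments scaled by transcript length and by the size of the library. Of the 23359 genes in the deposited table, 8609 met this rule, and 7796 of them reached 1 FPKM in both groups. The lowest member had 1.00016 FPKM in its higher group, and the gene just outside the rule had 0.999949 FPKM.

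Every LSC group came from female mice of 3 months, 12 days after they received transplanted leukaemia cells that carry the human oncogenes BCR-ABL and NUP98-HOXA9 together. SPL LSC and BM LSC had 3 RNA-seq libraries each. The levels of LSC from peripheral blood (BL LSC) and gonadal adipose tissue (AT LSC), and of the counterparts of LSC from normal bone marrow (NBM), are given beside them as a description, also from 3 libraries each. The labels give the NBM samples the same model text as the leukaemic ones. They state no sort gate, and nothing says that libraries were drawn from different animals, so p-values may measure technical spread alone. The authors deposited 1 pooled value per gene and group, so no value of a single library is given, and whether the libraries of both groups overlap cannot be seen. The pooled values rest on estimated fragment counts that were 0.544 times as many in SPL LSC as in BM LSC.

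BCR-ABL is a constitutively active tyrosine kinase that signals through JAK-STAT5 and ERK, and NUP98-HOXA9 is a fusion transcription factor that keeps progenitor genes of the HOXA and MEIS1 program active. Together they block differentiation in mouse progenitors and give a blast crisis. The spleen of the mouse makes red cells, platelets and granulocytes beside the marrow when demand is high, and it also holds many B cells, T cells and red pulp macrophages. Marrow holds stroma, bone and maturing granulocytes among other cells.

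Promoter sequences are shown for mast cell, erythroid and immediate early genes, since the called members of each of these lists moved in 1 direction. They come from RefSeq on GRCm38.p6, run 5′ to 3′ on the strand of the gene from 250 bases before its start to 50 after it, and belong to the called members with the highest levels whose window holds the motif searched. For mast cell and erythroid genes the letters searched were AGATAA on both strands, a core read by GATA factors, and for immediate early genes TGACGT on both strands, a core of the cyclic AMP response element. Capitals mark each match. Cpa3 lies at chr3:20242132-20242431 on the minus strand, Fcer1a at chr1:173227180-173227479 on the minus strand, Icam4 at chr9:21029182-21029481 on the plus strand, Kel at chr6:41704276-41704575 on the minus strand, Fos at chr12:85473640-85473939 on the plus strand and Atf3 at chr1:191183284-191183583 on the minus strand.
Cpa3: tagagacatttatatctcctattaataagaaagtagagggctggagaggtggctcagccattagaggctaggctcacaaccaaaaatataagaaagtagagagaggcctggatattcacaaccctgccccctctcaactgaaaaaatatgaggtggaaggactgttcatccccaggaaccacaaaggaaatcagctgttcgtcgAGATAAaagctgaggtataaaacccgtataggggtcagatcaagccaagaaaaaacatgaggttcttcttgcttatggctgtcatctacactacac
Fcer1a: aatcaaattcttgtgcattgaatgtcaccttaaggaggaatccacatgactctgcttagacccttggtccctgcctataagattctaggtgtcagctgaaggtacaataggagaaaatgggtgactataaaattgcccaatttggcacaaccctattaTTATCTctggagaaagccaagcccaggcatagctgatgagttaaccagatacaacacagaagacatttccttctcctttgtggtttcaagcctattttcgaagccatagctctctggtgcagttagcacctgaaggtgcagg
Icam4: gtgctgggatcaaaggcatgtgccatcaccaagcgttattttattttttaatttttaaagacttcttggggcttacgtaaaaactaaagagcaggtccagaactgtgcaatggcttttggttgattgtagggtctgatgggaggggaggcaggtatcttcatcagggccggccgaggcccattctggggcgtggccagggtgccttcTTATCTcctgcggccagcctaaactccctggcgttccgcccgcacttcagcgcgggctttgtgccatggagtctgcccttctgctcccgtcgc
Kel: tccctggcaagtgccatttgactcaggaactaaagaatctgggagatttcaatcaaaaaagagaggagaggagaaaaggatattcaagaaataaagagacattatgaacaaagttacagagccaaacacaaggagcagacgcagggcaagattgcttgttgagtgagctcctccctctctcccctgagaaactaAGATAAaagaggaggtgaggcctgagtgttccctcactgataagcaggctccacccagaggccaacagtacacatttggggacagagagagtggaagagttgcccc
Fos: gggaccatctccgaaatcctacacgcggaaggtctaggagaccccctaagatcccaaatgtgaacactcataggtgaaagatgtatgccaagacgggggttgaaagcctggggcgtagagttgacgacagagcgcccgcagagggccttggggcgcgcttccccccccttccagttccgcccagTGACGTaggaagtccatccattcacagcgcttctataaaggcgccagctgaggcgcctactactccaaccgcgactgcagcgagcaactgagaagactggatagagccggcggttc
Atf3: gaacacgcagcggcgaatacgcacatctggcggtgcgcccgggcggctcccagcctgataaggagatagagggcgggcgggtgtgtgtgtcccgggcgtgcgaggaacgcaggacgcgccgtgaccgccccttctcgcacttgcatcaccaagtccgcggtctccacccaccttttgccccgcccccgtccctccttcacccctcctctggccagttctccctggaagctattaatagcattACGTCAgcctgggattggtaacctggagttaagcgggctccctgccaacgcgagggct
AGATAA occurred in the windows of 2 of the 6 called mast cell genes that have an entry (Cpa3 and Fcer1a) and of 3 of the 5 called erythroid genes (Icam4, Kel and Rhd), against 11.2% of the 32851 promoter windows of the table. TGACGT occurred in 3 of the 8 called immediate early genes with an entry (Fos, Atf3 and Dusp1), against 7.51% of all windows. In Icam4 and Kel the match began 43 and 56 bases before the start, in Cpa3 46 bases, in Fcer1a 92 bases, in Fos 66 bases and in Atf3 8 bases. A gene was counted if any of its windows held the letters, whereas the shares are of single windows, so these are unlike measures. A match describes the letters only and is no evidence of binding.

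In the authors' deposited Cuffdiff table, 8510 of the 8609 genes were tested, and 239 of those (2.81%) passed a q-value of 0.05 between SPL LSC and BM LSC. Of these 107 (1.26%) were higher and 132 (1.55%) lower in SPL LSC. Among the 107 higher genes 48 were below 1 FPKM in BM LSC, and among the 132 lower genes 33 were below it in SPL LSC. Such genes met the level rule only through the group where they are high. The median log2 ratio over the tested genes was 0.17, and 65.9% of the ratios lay above 0, so a ratio near that value is what most genes had. With that shift taken out, 79 genes were called higher and 203 lower, with upper quartile scaling 83 and 177, and with scaling by total estimated counts 71 and 225. The deposited q-values were adjusted over all 10 comparisons of the series together. In the authors' Cuffdiff test the largest p-value among the 239 calls was 0.0104. Multiplied by the 8510 tested genes it comes to 88.9, so the q-value of 0.05 does not bound the false calls among these 239. Adjusted within SPL LSC against BM LSC alone, 92 genes passed, 47 higher and 45 lower, all of them among the 239. The smallest log2 change called was 1.12 among higher genes and -1.08 among lower genes, and a gene that was not called is not shown to be equal.

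**Figure D1:**
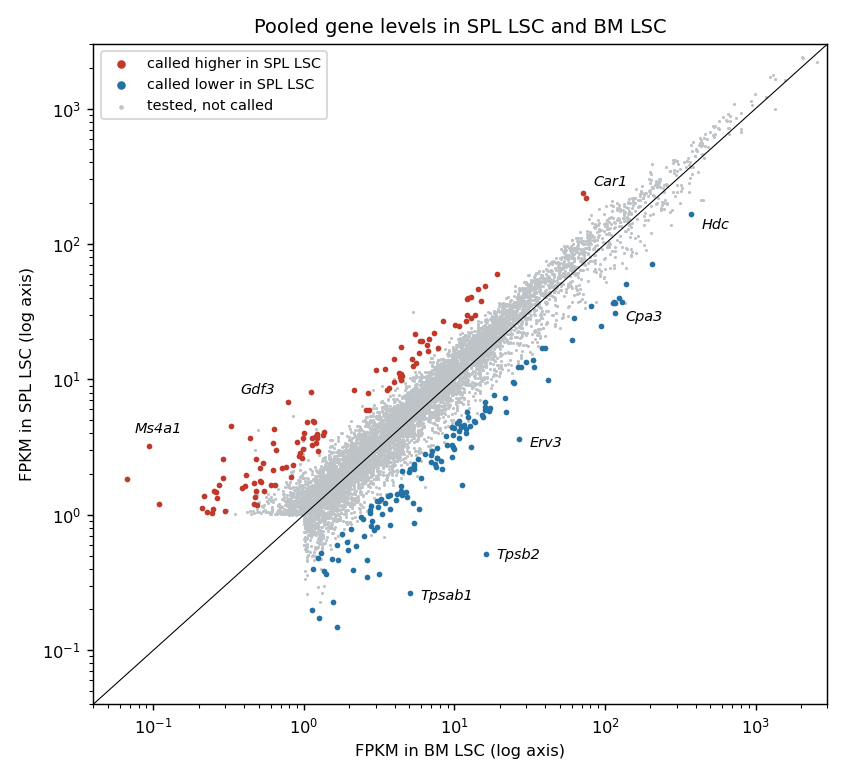
Level of 8451 tested genes in SPL LSC (vertical) against BM LSC (horizontal), pooled FPKM on log axes; red and blue points are called higher and lower in SPL LSC at a deposited q-value below 0.05, grey points are not called, and 59 genes lie outside the axes. Tpsb2 and Tpsab1 stand farthest below the line of equal levels and Ms4a1 is among those farthest above it, while Car1 and Hdc are called at levels over 70 FPKM in both groups.

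All called mast cell and basophil genes were lower in SPL LSC. Of the 16 genes of the list, all above 1 FPKM in at least 1 group and all tested, 8 fell, none rose, and the median log2 ratio was -1.35 against 0.17 over all tested genes. These genes encode the proteases, the histamine enzyme and the IgE receptor stored or carried by mast cells and basophils. Tpsb2 (mast cell tryptase beta, chr17:25366333-25368092) had 0.514 FPKM in SPL LSC and 16.1 FPKM in BM LSC. The deposited 2 SD bounds were 0.161 to 0.868 FPKM in SPL LSC and 10.2 to 22.01 FPKM in BM LSC, which do not overlap. That is a log2 ratio of -4.97 ± 0.56 (SE), the largest decrease among called genes that the naming rule covers. Its neighbour Tpsab1 (tryptase alpha/beta) had 0.265 FPKM in SPL LSC and 5.06 FPKM in BM LSC, a log2 ratio of -4.25 ± 0.64 (SE), and the counting could have shared reads between these near-identical genes. Both tryptase genes met the level rule through BM LSC alone. All 16 genes of the list reached 1 FPKM in BM LSC, and 14 did in SPL LSC. No other group reached the BM LSC level of Tpsb2, which was 1.23 FPKM in BL LSC, 0.846 FPKM in AT LSC and 0.581 FPKM in NBM.

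Cpa3, the mast cell carboxypeptidase (chr3:20215616-20242181, promoter above), had 36.9 FPKM in SPL LSC and 113 FPKM in BM LSC, and its log2 ratio was -1.62 ± 0.42 (SE). Fcer1a, the IgE-binding chain of the high-affinity IgE receptor, had 2.18 FPKM in SPL LSC and 8.31 FPKM in BM LSC. Hdc, which makes histamine, had 166 FPKM in SPL LSC and 372 FPKM in BM LSC. Hdc is the most abundant of the genes called lower, yet the smallest of the 8 changes, at -1.16 ± 0.44 (SE).
Cma1, mast cell chymase, had 70.8 FPKM in SPL LSC and 205 FPKM in BM LSC. Its neighbours Mcpt4 and Mcpt1, also chymases, had 4.90 and 2.24 FPKM in SPL LSC and 13.5 and 7.53 FPKM in BM LSC. The log2 ratios of these 3 genes lay between -1.75 and -1.47, and they stand in 1 gene cluster with similar sequences, so they are not separate measurements. The remaining 8 genes did not pass, among them genes named after their values were seen. Mcpt8, a basophil protease, had 185 FPKM in SPL LSC and 234 FPKM in BM LSC. Prss34, another basophil protease, had 388 FPKM in SPL LSC and 204 FPKM in BM LSC, the 1 ratio above 0 in the list. Tph1, the mast cell enzyme of serotonin synthesis, had 36.5 FPKM in SPL LSC and 135 FPKM in BM LSC, but its bounds of 2.92 to 70.0 FPKM in SPL LSC and 48.4 to 221 FPKM in BM LSC overlapped. In these pooled bulk samples fewer cells of a type and less RNA per cell cannot be told apart. Within this comparison alone 6 of the 8 genes passed, without Hdc and Mcpt4.

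Immediate early genes, which cells switch on within minutes of a stimulus, were called only as lower in SPL LSC. Of 25 genes in the list 16 were above 1 FPKM and tested. Of these 9 fell and none rose, with a median log2 ratio of -1.27, and all 16 ratios lay below 0. Without the level rule the median was -0.82 over 24 tested genes, with the same 9 called lower. Fos, an AP-1 subunit (chr12:85473901-85477270), had 37.5 FPKM in SPL LSC and 131 FPKM in BM LSC, a log2 ratio of -1.80 ± 0.51 (SE). Fosb, its relative, had 0.817 FPKM in SPL LSC and 3.04 FPKM in BM LSC, and met the level rule through BM LSC alone. Klf2, a zinc finger factor of lymphocytes and endothelium, had 1.22 FPKM in SPL LSC and 5.31 FPKM in BM LSC, the largest decrease of the list at -2.12 ± 0.54 (SE). Klf6 had 19.6 FPKM in SPL LSC and 60.0 FPKM in BM LSC. Egr1, a zinc finger factor induced by ERK, had 4.13 FPKM in SPL LSC and 10.7 FPKM in BM LSC. The other called genes were Jun, Atf3, Dusp1 and Ier3, with log2 ratios between -1.62 and -1.21. Jun had 1.15 FPKM in SPL LSC and 3.09 FPKM in BM LSC, and Atf3 had 3.16 FPKM in SPL LSC and 9.72 FPKM in BM LSC. Both groups were below NBM for Fos, at 210 FPKM there.
Signalling genes outside the list, named after their values were seen, were also called lower. Rgs1, an inhibitor of G protein signalling, had 9.83 FPKM in SPL LSC and 41.8 FPKM in BM LSC, and its relative Rgs2 had 2.69 FPKM in SPL LSC and 9.56 FPKM in BM LSC. Tnfrsf9, the costimulatory receptor 4-1BB, had 5.76 FPKM in SPL LSC and 21.98 FPKM in BM LSC. The 10 tested targets of JAK-STAT5 and ERK feedback, which BCR-ABL drives, all had ratios below 0, with a median log2 ratio of -0.70, and none was called. Of these, Socs2 and Pim2 were picked after their values were seen. Socs2, a STAT5 target, had 8.66 FPKM in SPL LSC and 17.6 FPKM in BM LSC, and Pim2, a survival kinase, had 3.20 FPKM in SPL LSC and 6.88 FPKM in BM LSC. Pim2 was called lower once the median shift was taken out. Of the 9 immediate early genes only Fos and Klf2 passed when q-values were adjusted within this comparison alone.

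Called cytokine and chemokine genes were lower in SPL LSC, except Cxcl10. Of 27 genes 17 were above 1 FPKM and tested, 7 fell and 1 rose, 3 ratios lay above 0, and the median log2 ratio was -0.81. The inflammatory chemokines Ccl4 and Ccl3 had the highest levels among the called members. Ccl4 had 50.7 FPKM in SPL LSC and 137 FPKM in BM LSC, and Ccl3 had 37.2 FPKM in SPL LSC and 114 FPKM in BM LSC. Osm and Lif, neighbouring genes for cytokines of the IL-6 family, had 12.4 and 2.62 FPKM in SPL LSC and 33.7 and 7.63 FPKM in BM LSC. The other called members were Il6, Csf1 and Ccl2, with log2 ratios of -1.34, -1.75 and -1.76. Ccl7, a monocyte chemokine beside Ccl2 that the list does not hold, had 0.345 FPKM in SPL LSC and 2.62 FPKM in BM LSC.
Cxcl10, a chemokine induced by interferon, was the called gene that rose. It had 3.88 FPKM in SPL LSC and 1.34 FPKM in BM LSC, a log2 ratio of 1.54 ± 0.59 (SE), and it lost the call under each of the 3 other scalings. Csf2, which encodes GM-CSF, had 2.52 FPKM in SPL LSC and 5.996 FPKM in BM LSC and did not pass, though it was called lower with the median shift taken out. Il1b had 4.92 FPKM in SPL LSC and 5.30 FPKM in BM LSC, and Tnf had 1.68 FPKM in SPL LSC and 2.88 FPKM in BM LSC, neither past the test. SPL LSC and BM LSC were both far below AT LSC for Csf2, at 79.8 FPKM there, and for Il1b, at 57.9 FPKM there. Within this comparison alone only Ccl3 and Lif passed from the list.

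Erythroid effector genes, which encode the membrane, blood group and haem proteins of red cell precursors, were called only as higher in SPL LSC. Of 28 genes found 20 were above 1 FPKM and tested. Of these 7 rose and none fell, and the median log2 ratio was 0.96. All 20 reached 1 FPKM in SPL LSC but 15 did in BM LSC, and Ermap, Rhd and Aqp1 entered through SPL LSC alone, so the count by itself is no support. At 5 FPKM or more 2 of 12 were called, and the median was 0.64. Car1, carbonic anhydrase 1 (chr3:14766214-14808365), had 239 FPKM in SPL LSC and 71.1 FPKM in BM LSC, a log2 ratio of 1.75 ± 0.44 (SE). It was the most abundant gene called higher, and its level was 11.9 FPKM in BL LSC, 8.95 FPKM in AT LSC and 13.1 FPKM in NBM. Rhd, of the Rh blood group, had 3.03 FPKM in SPL LSC and 0.651 FPKM in BM LSC, the largest increase of the list at 2.22 ± 0.55 (SE). Kel, the Kell blood group protease, had 4.81 FPKM in SPL LSC and 1.16 FPKM in BM LSC. Ermap, an erythroblast membrane protein, had 3.68 FPKM in SPL LSC and 0.986 FPKM in BM LSC. Icam4, an erythroid adhesion protein, had 27.2 FPKM in SPL LSC and 11.9 FPKM in BM LSC, and it was not called under the 3 other scalings. The remaining 2 were Aqp1, a water channel, and Cldn13, both at a log2 ratio of 1.58. Genes of red cells outside the list moved the same way, and these were named after their values were seen. Tspo2, a cholesterol-binding protein of erythroblasts, had 14.2 FPKM in SPL LSC and 3.99 FPKM in BM LSC. Mfsd2b, a sphingosine-1-phosphate exporter of red cells and platelets, had 17.8 FPKM in SPL LSC and 6.60 FPKM in BM LSC.
The globins did not follow. The merged alpha globin entry had 260 FPKM in SPL LSC and 207 FPKM in BM LSC, the merged beta globin entry had 307 FPKM in SPL LSC and 364 FPKM in BM LSC, and neither passed. Globin genes are near-identical copies, so their counts are uncertain one by one. Transcription factors and Pf4 are named here after their values were seen. Gata1, the master factor of erythroid, megakaryocyte and mast cells, had 49.1 FPKM in SPL LSC and 25.3 FPKM in BM LSC, with a deposited q-value of 0.0902 in the authors' deposited table. Gata2, its early counterpart, had 7.86 FPKM in SPL LSC and 10.9 FPKM in BM LSC. None of the 11 tested erythro-megakaryocytic transcription factors was called, and their median log2 ratio was 0.51. Of 14 tested megakaryocyte and platelet genes Vwf and Treml1 rose. Vwf, von Willebrand factor, had 1.79 FPKM in SPL LSC and 0.508 FPKM in BM LSC, and Treml1, a platelet granule receptor, had 1.74 FPKM in SPL LSC and 0.516 FPKM in BM LSC. Both met the level rule through SPL LSC alone, and at 5 FPKM or more none of 8 tested genes of the list was called. Pf4, platelet factor 4, had 61.1 FPKM in SPL LSC and 34.9 FPKM in BM LSC and did not pass. Within this comparison alone Car1, Rhd, Kel and Ermap passed among the erythroid genes, and Vwf among the platelet genes.

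B cell genes had the largest increases, at low levels. Of 20 B cell and plasma cell genes found 6 were above 1 FPKM and tested, 5 of them rose, and the median log2 ratio was 2.97. The level rule admitted most of them through SPL LSC, where 6 of the 20 reached 1 FPKM, against 2 in BM LSC, so the count among the 6 is no support by itself. Ms4a1 (CD20) had 3.22 FPKM in SPL LSC and 0.0942 FPKM in BM LSC, a log2 ratio of 5.09 ± 0.89 (SE). Cd79a, a signalling chain of the B cell receptor, had 2.58 FPKM in SPL LSC and 0.289 FPKM in BM LSC. Igll1, part of the surrogate light chain of early B cells, had 4.32 FPKM in SPL LSC and 0.630 FPKM in BM LSC, and Igj, the joining chain of secreted antibodies, had 11.9 FPKM in SPL LSC and 3.48 FPKM in BM LSC. The summed level of the 20 genes was 36.8 FPKM in SPL LSC and 9.35 FPKM in BM LSC, and no gene was listed at 0 in either group. Mzb1, a chaperone of antibody assembly outside the list, had 4.49 FPKM in SPL LSC and 0.330 FPKM in BM LSC. In NBM, Igll1, Igj and Mzb1 were above SPL LSC, at 18.1, 109 and 9.96 FPKM. Ms4a1 and Cd79a were below SPL LSC there, at 1.17 and 2.39 FPKM. All 5 list genes passed within this comparison alone.

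Of 34 T and NK cell genes 19 were above 1 FPKM and tested, 4 rose and none fell, while the median log2 ratio was -0.18. That sign turned with the level rule, since the median was 0.68 over 30 tested genes without it, 6 of them called higher, and 0.27 over 4 genes at 5 FPKM or more, none called. Cd3e, Cd3g and Cd2 met the level rule through SPL LSC alone. Cd3e and Cd3g, chains of the T cell receptor complex that lie side by side, had 1.98 and 1.71 FPKM in SPL LSC and 0.415 and 0.463 FPKM in BM LSC. Cd2, an adhesion receptor of T and NK cells, had 3.39 FPKM in SPL LSC and 0.619 FPKM in BM LSC. Gzma had 4.12 FPKM in SPL LSC and 1.36 FPKM in BM LSC and was not called under the 3 other scalings, where 3 genes were called higher and 1 or 2 lower. The summed level of the T and NK list was 596 FPKM in SPL LSC and 492 FPKM in BM LSC, most of it from Nkg7 and Gzmb, which were not called. Cd3e was highest in NBM, at 14.9 FPKM. Ccr7, the receptor that leads B, T and dendritic cells into lymphoid zones, had 3.71 FPKM in SPL LSC and 0.435 FPKM in BM LSC, and Cd83, carried by activated B and dendritic cells, had 8.02 FPKM in SPL LSC and 1.12 FPKM in BM LSC. S1pr1, the receptor for egress into blood, had 3.04 FPKM in SPL LSC and 0.980 FPKM in BM LSC. These 3 genes moved together with the B cell list, and the part of B and T cells in their values was not tested. Of 8 tested genes in the red pulp macrophage list only Marco, a scavenger receptor, was called, as higher. It had 1.10 FPKM in SPL LSC and 0.251 FPKM in BM LSC, and met the level rule through SPL LSC alone. Its level was 48.5 FPKM in AT LSC, 6.72 FPKM in BL LSC and 0.0817 FPKM in NBM. The summed level of the 13 genes of that list was 33.8 FPKM in SPL LSC and 25.8 FPKM in BM LSC. When adjusted within this comparison alone, Cd3e, Cd2, Ccr7 and Cd83 passed, and Cd3g, Gzma, S1pr1 and Marco did not. Endothelial, adipocyte and innate lymphoid genes had no called member among 1, 2 and 5 tested.

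**Figure D2:**
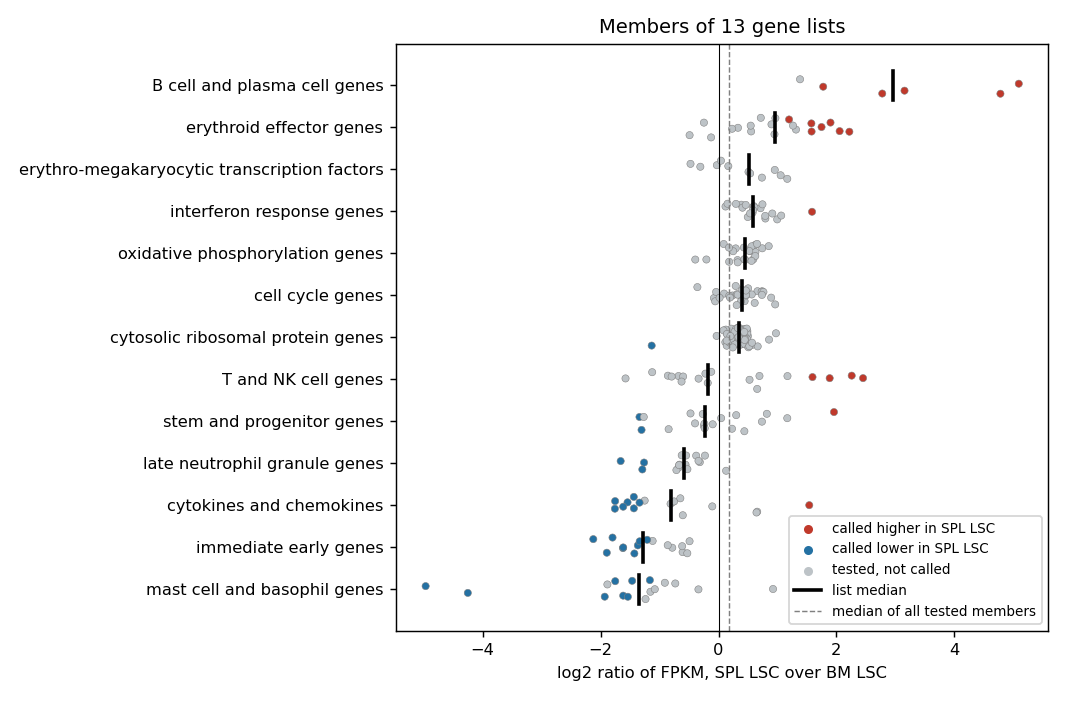
Log2 ratio of FPKM, SPL LSC over BM LSC, of each tested gene above 1 FPKM in 13 gene lists; red and blue points are called higher and lower in SPL LSC, grey points are not called, black bars are list medians and the dashed line is the median of all tested genes, 0.17. B cell and erythroid effector genes lie to the right, with medians of 2.97 and 0.96, and mast cell, immediate early and cytokine genes to the left, with medians of -1.35, -1.27 and -0.81.

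Genes that define stem and progenitor cells had called members in both directions, where 2.81% of all tested genes were called. Of 25 genes 19 were above 1 FPKM and tested, 1 rose, 2 fell and the median log2 ratio was -0.23, a sign that turned at 5 FPKM or more, where it was 0.065. Ly6a, the stem cell antigen Sca-1, had 97.9 FPKM in SPL LSC and 105 FPKM in BM LSC, a log2 ratio of -0.10 with a 95% interval of -0.96 to 0.76. Kit, the stem cell factor receptor, had 4.10 FPKM in SPL LSC and 2.93 FPKM in BM LSC, and its test had failed in the deposited table. Cd34, a progenitor surface protein, had 9.60 FPKM in SPL LSC and 24.3 FPKM in BM LSC, a log2 ratio of -1.34 ± 0.48 (SE). Flt3, a receptor of multipotent progenitors and dendritic cells, had 0.522 FPKM in SPL LSC and 1.29 FPKM in BM LSC. Slamf1, the stem cell marker CD150 that lymphocytes and mast cells also carry, had 8.35 FPKM in SPL LSC and 2.15 FPKM in BM LSC, a log2 ratio of 1.96 ± 0.44 (SE). Its level in both groups lay above the 0.373 FPKM of BL LSC, the 0.279 FPKM of AT LSC and the 0.880 FPKM of NBM. Within this comparison alone Slamf1 passed, and Cd34 and Flt3 did not.
The leukaemic HOXA and MEIS program showed no called gene among 9 tested. Meis1, a partner of HOXA9, had 14.2 FPKM in SPL LSC and 12.1 FPKM in BM LSC, with a 95% interval of its log2 ratio of -0.72 to 1.18. Hoxa9 had 2.03 FPKM in SPL LSC and 3.65 FPKM in BM LSC, with an interval of -1.79 to 0.10. Whether reads from the human part of the fusion gene were counted at this mouse gene is not known. Cxcr4, the receptor that holds progenitors in marrow, had 2.93 FPKM in SPL LSC and 1.98 FPKM in BM LSC, with an interval of -0.43 to 1.56. Each of these intervals includes 0 and also sizeable changes, so equal levels are not shown.

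Late granule and monocyte genes had called members, and over all tested genes 2.81% were called. Of 16 tested genes of late neutrophil granules 3 fell and none rose, with 15 ratios below 0 and a median log2 ratio of -0.59. Mmp8, the neutrophil collagenase, had 2.94 FPKM in SPL LSC and 7.05 FPKM in BM LSC. Padi4, the enzyme of histone citrullination in neutrophils, had 3.12 FPKM in SPL LSC and 7.64 FPKM in BM LSC. Chi3l3 (Ym1), a chitinase-like protein, had 36.8 FPKM in SPL LSC and 116 FPKM in BM LSC, and it shares sequence with Chi3l4 beside it. The 12 primary granule genes had no call and a median log2 ratio of -0.05. None of the 3 late granule genes passed within this comparison alone.
Of 18 tested monocyte and macrophage genes 2 rose and 2 fell, and the median log2 ratio was -0.0032, or 0.032 at 5 FPKM or more. Emr1 (F4/80) had 16.9 FPKM in SPL LSC and 40.2 FPKM in BM LSC, and Ccr2, the receptor for Ccl2, had 12.4 FPKM in SPL LSC and 26.4 FPKM in BM LSC. Cx3cr1, the fractalkine receptor, had 8.65 FPKM in SPL LSC and 3.69 FPKM in BM LSC, and C1qb, a complement chain, had 10.3 FPKM in SPL LSC and 4.34 FPKM in BM LSC. C1qb lost its call under the 3 other scalings, Cx3cr1 under scaling by total counts, and none of these 4 genes passed within this comparison alone. The summed level of that list was 758 FPKM in SPL LSC and 730 FPKM in BM LSC. Cd36, a fatty acid and scavenger receptor, had 5.90 FPKM in SPL LSC and 15.9 FPKM in BM LSC, a log2 ratio of -1.43 ± 0.43 (SE). Slc27a1, a fatty acid transporter, had 0.632 FPKM in SPL LSC and 1.93 FPKM in BM LSC. These were the only calls among 12 tested genes of lipid uptake and storage, and neither passed within this comparison alone.

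Cell cycle, oxidative phosphorylation and ribosomal protein genes mostly had ratios above 0, with a single call, which was lower. The 30 cell cycle genes had a median log2 ratio of 0.40 with 26 ratios above 0, the 23 oxidative phosphorylation genes 0.45 with 21 above 0, and the 78 tested cytosolic ribosomal protein genes 0.34 with 76 above 0. None of the cell cycle or oxidative phosphorylation genes was called, and Rpl13, at 28.4 FPKM in SPL LSC and 62.3 FPKM in BM LSC, was the 1 call among ribosomal protein genes. Mki67, a marker of cycling cells, had 17.1 FPKM in SPL LSC and 12.99 FPKM in BM LSC, and Myc had 32.7 FPKM in SPL LSC and 33.5 FPKM in BM LSC. Set against the median of all tested genes these medians came to 0.23, 0.28 and 0.17. Short transcripts had higher ratios than long ones. The median was 0.27 in the third of genes with the fewest estimated counts per FPKM, which grows with transcript length, and 0.11 in the third with the most, and its part in the ribosomal values was not tested. Interferon response genes had 21 of 21 tested ratios above 0, a median log2 ratio of 0.59 and 1 call. Iigp1, an interferon-induced GTPase, had 21.9 FPKM in SPL LSC and 7.28 FPKM in BM LSC, and it did not pass within this comparison alone. Glycolysis, fatty acid oxidation, cholesterol synthesis, heat shock, iron handling and MHC class I and II genes had no called member among 17, 19, 15, 12, 12, 14 and 10 tested. In the integrated stress response Trib3, a pseudokinase induced by ATF4, had 1.11 FPKM in SPL LSC and 5.81 FPKM in BM LSC, and Slc3a2, a subunit of amino acid transporters, had 7.64 FPKM in SPL LSC and 18.2 FPKM in BM LSC. Both fell, among 22 tested genes with a median log2 ratio of -0.17.

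Some of the called genes were neighbours of one family, a grouping made after the values were seen. The share of all tested genes with such neighbours was not computed, so the count below is a description only. Runs of 3 or more genes called in the same direction with gaps of at most 200000 bases held 48 of the 239 genes in 10 runs. All 8 Ces2 carboxylesterase genes (chr8:104734003-105020410), which hydrolyse esters in liver and gut, rose, with 19.1 to 59.8 FPKM in SPL LSC and 5.90 to 19.0 FPKM in BM LSC. Their log2 ratios spanned 0.04, against a smallest standard error of 0.42 among them. The 11 Psg pregnancy-specific glycoprotein genes of 1 run (chr7:18345808-18821591), known from the placenta, fell, with 3.25 to 7.31 FPKM in SPL LSC and 8.87 to 21.7 FPKM in BM LSC. Clca1, Clca2 and Clca4, of the family of chloride channel accessory proteins, rose with ratios that spanned 0.03, while Clca3 beside them fell, at 0.393 FPKM in SPL LSC and 2.13 FPKM in BM LSC. Members of these families resemble each other in sequence and the counting could have split reads among them, so single members are uncertain and are not separate measurements. With q-values adjusted within this comparison alone, 7 of the 8 Ces2 genes and 6 of the 11 Psg genes passed, and none of the chitinase-like, Cd200r and Iigp1 runs did. Counting each run once left 93 genes higher and 108 lower.
Crisp1 and Crisp3, neighbouring genes for cysteine-rich secretory proteins, had 30.9 and 24.7 FPKM in SPL LSC and 117 and 94.1 FPKM in BM LSC. The casein genes Csn2, Csn1s2a and Csn1s2b, known from milk, fell with log2 ratios of -2.01, -2.49 and -2.78. Svs4, a seminal vesicle protein gene, was listed at 0 in SPL LSC and had 1.25 FPKM from 29.6 estimated counts in BM LSC, and no ratio is given for it. Chymase genes, chitinase-like genes, Cd200r genes, a Ccl2 run, an Apol run and an Iigp1 run made up the rest.

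**Figure D3:**
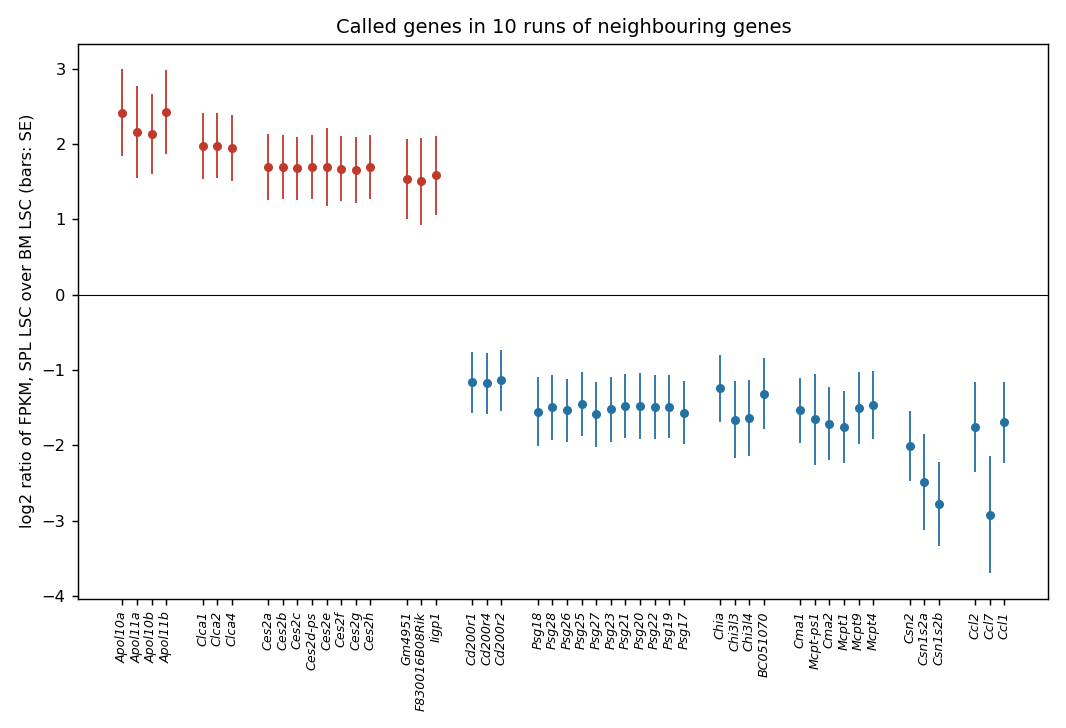
Log2 ratio of FPKM, SPL LSC over BM LSC, with its standard error for the 48 called genes in 10 runs of neighbouring genes; red is higher and blue lower in SPL LSC. Within the Ces2 and Psg runs the points are level, with spans of 0.04 and 0.14 against standard errors of at least 0.42, whereas the Ccl2, Ccl7 and Ccl1 run spans 1.23.

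Among the 15 largest increases that are no family runs, Gdf3, a ligand of the TGF-beta family, had 6.85 FPKM in SPL LSC and 0.779 FPKM in BM LSC, at a log2 ratio of 3.14 ± 0.48 (SE). Sdpr (cavin-2), a caveolar protein, had 1.20 FPKM in SPL LSC and 0.109 FPKM in BM LSC. Alpl, tissue alkaline phosphatase, had 1.49 FPKM in SPL LSC and 0.252 FPKM in BM LSC. Dnase1l3, a secreted DNase of macrophages and dendritic cells, had 1.89 FPKM in SPL LSC and 0.291 FPKM in BM LSC. Gzmk, a granzyme, Cd300e, a myeloid receptor, and Gkn3, a gastrokine, had log2 ratios of 2.67, 2.62 and 2.50. Gdf3, Sdpr, Alpl, Dnase1l3, Gzmk, Cd300e and Gkn3 met the level rule through SPL LSC alone. Mt2, a metallothionein, was among the most abundant genes called higher, at 49.0 FPKM in SPL LSC and 15.9 FPKM in BM LSC, and Bex4 had 38.1 FPKM in SPL LSC and 15.04 FPKM in BM LSC.
Among the largest decreases, Tnfrsf11b (osteoprotegerin), the decoy receptor that holds back osteoclasts, had 0.366 FPKM in SPL LSC and 3.17 FPKM in BM LSC, at a log2 ratio of -3.12 ± 0.52 (SE). Slc7a3, a transporter of arginine, had 0.147 FPKM in SPL LSC and 1.67 FPKM in BM LSC. Erv3 had 3.61 FPKM in SPL LSC and 26.9 FPKM in BM LSC, at -2.90 ± 0.44 (SE). Avil (advillin), an actin-binding protein, had 0.877 FPKM in SPL LSC and 5.37 FPKM in BM LSC, below the 13.8 FPKM of BL LSC. Slc17a8, a vesicular glutamate transporter, and Tph2, the neuronal enzyme of serotonin synthesis, had log2 ratios of -2.85 and -2.16. Fbxl21 and Ivl, the gene of involucrin, had -2.77 and -2.52. Of these decreases all but Erv3 met the level rule through BM LSC alone.
Genes of matrix and bone cells were near 0 for the most part. Of 21 stromal genes 4 were tested, Col5a1 rose at 2.34 FPKM in SPL LSC and 0.847 FPKM in BM LSC, and Nov (CCN3) fell at 1.29 FPKM in SPL LSC and 4.06 FPKM in BM LSC. Of 4 tested bone lineage genes 1 rose and 1 fell, with a median log2 ratio of 0.23. Spp1, osteopontin, fell, at 9.45 FPKM in SPL LSC and 25.04 FPKM in BM LSC. Alpl rose, at a log2 ratio of 2.57, and met the level rule through SPL LSC alone. Within this comparison alone Alpl passed, and Spp1, Col5a1 and Nov did not.

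**Figure D4:**
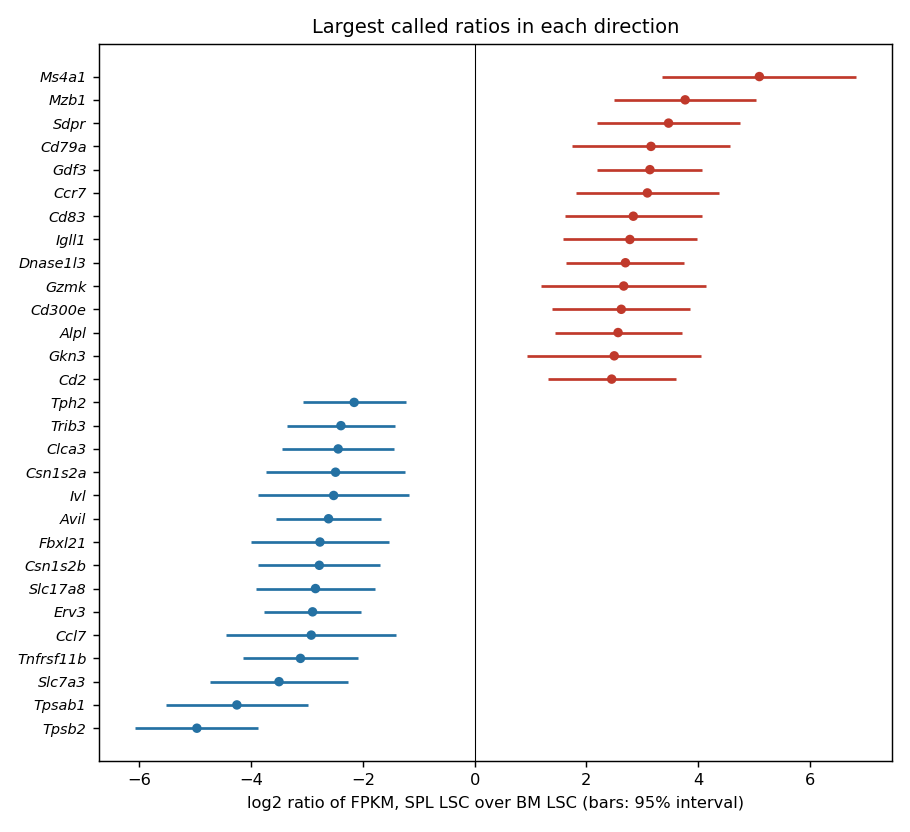
Called increases (red, 14 genes) and decreases (blue, 15 genes) of the largest size, as log2 ratio of FPKM, SPL LSC over BM LSC, with a 95% interval from the standard error that the authors' test implies. Ms4a1 at 5.09 and Tpsb2 at -4.97 are at the ends, and none of the 29 intervals reaches 0.

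Set beside the other groups of the series, the genes called between spleen and marrow followed no single order. Car1, Kel and Slamf1 were highest in SPL LSC, next in BM LSC and lower in BL LSC, AT LSC and NBM, with 0.291, 0.0800 and 0.360 FPKM for Kel in the last 3. Tpsb2 and Cpa3 were highest in BM LSC. Hdc was high in all 4 leukaemic groups, at 166 FPKM in SPL LSC, 372 FPKM in BM LSC, 326 FPKM in BL LSC and 228 FPKM in AT LSC, and lower in NBM, at 21.6 FPKM. Cd34 was highest in NBM, at 40.0 FPKM, with 9.60 FPKM in SPL LSC, 7.92 FPKM in BL LSC and 8.07 FPKM in AT LSC. Cd36 was lowest in NBM, at 2.16 FPKM, and highest in BL LSC, at 41.3 FPKM. These levels of pooled groups are a description and were not tested against each other here.

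**Figure D5:**
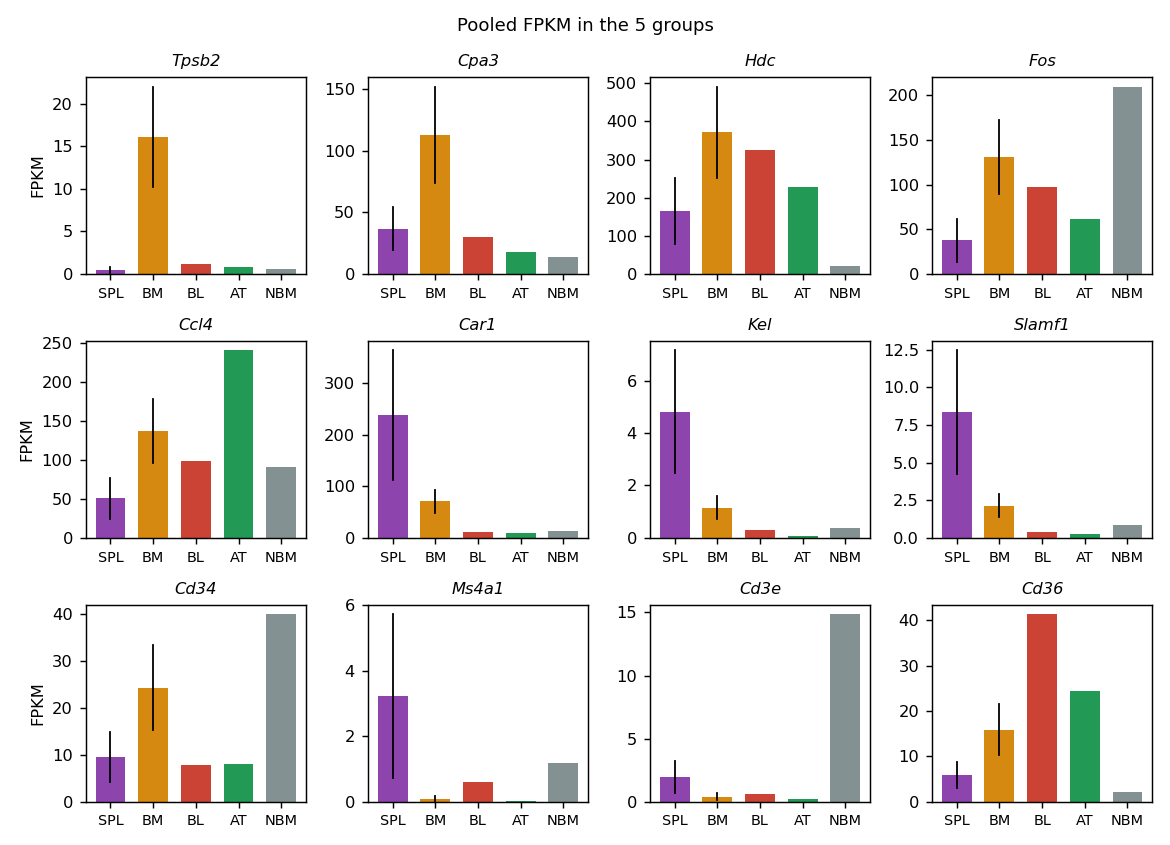
Pooled FPKM of 12 named genes in SPL LSC, BM LSC, BL LSC, AT LSC and NBM, 1 pooled value per bar; black lines on the first 2 bars are the authors' bounds at 2 SD on either side. The spleen bar stands highest for Car1, Kel, Slamf1 and Ms4a1, the marrow bar for Tpsb2, Cpa3 and Hdc, and the NBM bar for Fos, Cd34 and Cd3e.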

How the data were processed

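RNA-seq libraries of SPL LSC and BM LSC (3 each) were made by low-input cDNA synthesis and transposon-based library construction, per the labels' protocols. Per the submitters' processing notes, reads were trimmed with Trimmomatic 0.32 and quantified by the authors with Cufflinks 2.0.2 and Cuffdiff (build mm10). Aligner, annotation, strand setting and Cuffdiff version were not given in the sources used here. Pooled over the libraries of a group, the authors deposited for each gene an FPKM, bounds at 2 SD and an estimated count. The log2 fold columns and the test statistic, both held as a score, and the p-value and q-value of each gene are also deposited values of the authors' Cuffdiff test.

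Genes were kept at 1 FPKM or more in either group. A gene was called at test status OK and a deposited q-value below 0.05. No test over libraries could be run on pooled values, so edgeR was not used, and the precision is that of the authors' test. The standard error is the log2 ratio divided by the deposited statistic, and the 95% interval is 1.96 standard errors on either side. A recomputed Benjamini-Hochberg adjustment over all 10 comparisons differed from the deposited q-values by at most 1.70e-06. Of 8609 genes 99 had no test (65 failed, 33 low data, 1 high data), and 58 tested genes were at 0 in 1 group and have no ratio. In 44 genes, none called, FPKM differed between deposited tables; the pair table was used. Gene starts are printed counting from 1. The 43 gene lists hold 852 entries, of which 846 matched. Named genes were, per direction, the 15 largest ratios and the 8 highest levels among called genes with over 3 estimated counts in both groups and no predicted-gene name, up to 4 called genes per list by q-value, and 12 fixed genes; others complete a list's calls or were picked with their values in view, the globins, Nkg7 and Gzmb among them. The genes, lists and rules were chosen with earlier results of these data known. Python 3.11.15, pandas 2.3.3 and scipy 1.17.1 were used, and the recalculation was tested on simulated data. A gene among those counted is not reported here by name.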

Additional observations from a re-analysis of the deposited data

How the results depend on the processing

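The count of 239 called genes (107 higher and 132 lower in SPL LSC) moved most with the adjustment. Within this comparison alone 92 passed (47 higher, 45 lower), and over the 8510 tested genes alone, an adjustment added after seeing the data, 100 passed (49 higher, 51 lower). At a q-value below 0.01 there were 121 (57 higher, 64 lower), and at 5 FPKM or more in either group 127 (46 higher, 81 lower), both by construction fewer. Centring on the median ratio gave 203 lower genes, and scaling by total estimated counts gave 71 higher and 225 lower genes. No FPKM filter gave 324 calls, upper quartile scaling 260 and leaving out merged entries 239, each within 1.5 times of 239. The calls themselves changed in part with the scaling. Of the 239 genes, 211 stayed called with centring, 215 with upper quartile scaling and 203 with scaling by total estimated counts. Counting neighbouring runs once, added after seeing the data, gave 93 higher and 108 lower genes. The directions of the called genes are not checked by these alternatives. The scalings took at most 0.22 from each log2 ratio, and the smallest called was 1.08 in size.

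No paired analysis was possible because the deposited columns pool the libraries of a group, and no library could be left out for the same reason. SPL LSC rested on 0.544 times the estimated fragments of BM LSC, and the median standard error of a log2 ratio was 0.45, and no log2 change smaller than 1.08 in size was called.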
